A study of Mus musculus with 6 samples.

Results

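The 5 genes described here are the mouse Fc gamma receptors, Fcgr1, Fcgr2b, Fcgr3 and Fcgr4, and Fcer1g, the signalling chain that the activating receptors share. They were taken by gene identity from the 49328 genes of the deposited table, and all 5 passed the filter on low values, as did 11862 genes in all. The libraries were made from total RNA of cells labelled as MSCs (mesenchymal stromal cells), which were obtained by digesting the marrow of mice of the F1 hybrid strain CB6F1 that had aGVHD (acute graft-versus-host disease, in which transplanted immune cells attack the host). In culture the cells received either the vehicle DMSO or a compound named only as R at 0.5 um (unit as labelled), with 3 libraries in each group. Both groups came from mice with aGVHD, so there was no group without the disease. The sources used here do not say what R is, how long the treatment lasted or how old the animals were. The labels do not tell whether replicates are different animals, different cultures or repeats of the same cells, so the p-values measure only the spread between these libraries, which may be technical.

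Fc gamma receptors bind the constant part of IgG and link antibody to phagocytes. Fcgr1, Fcgr3 and Fcgr4 are activating: their ligand-binding chains pair with the Fcer1g dimer, whose ITAM (an activating tyrosine motif) recruits the kinase Syk once Src-family kinases have phosphorylated it. Fcgr2b is the inhibitory receptor and carries an ITIM (an inhibitory tyrosine motif) in its own tail, which recruits the lipid phosphatase encoded by Inpp5d. The balance of activating and inhibitory receptors on a macrophage is known to set its threshold for responding to immune complexes, and interferon gamma is a well-known inducer of Fcgr1 and Fcgr4.

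The stretch just before the transcription start is shown for the receptors with the largest changes, Fcgr1 and Fcgr4, and for Fcer1g, the member with the smallest. Each is the 250 bases before the RefSeq start on GRCm38.p6, written 5′ to 3′ on the strand of the gene. The windows are chr3:96293970-96294219 on the minus strand for Fcgr1, chr1:171018676-171018925 on the plus strand for Fcgr4 and chr1:171234350-171234599 on the minus strand for Fcer1g. Capitals mark matches, on either strand, to the gamma-activated site TTCNNNGAA, the core of the interferon-stimulated response element, which is a pair of GAAA runs with any 2 bases between them, or the PU.1 core GAGGAA, whose reverse complement is TTCCTC.
Fcgr1: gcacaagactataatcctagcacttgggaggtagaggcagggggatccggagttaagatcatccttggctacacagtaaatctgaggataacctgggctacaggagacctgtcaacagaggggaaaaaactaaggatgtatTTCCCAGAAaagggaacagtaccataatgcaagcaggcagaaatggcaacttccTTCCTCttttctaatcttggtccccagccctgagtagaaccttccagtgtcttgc
Fcgr4: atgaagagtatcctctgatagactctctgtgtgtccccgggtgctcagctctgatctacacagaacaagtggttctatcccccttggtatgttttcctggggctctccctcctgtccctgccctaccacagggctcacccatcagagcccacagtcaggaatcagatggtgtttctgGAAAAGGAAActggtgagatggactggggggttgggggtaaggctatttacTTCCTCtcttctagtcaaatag
Fcer1g: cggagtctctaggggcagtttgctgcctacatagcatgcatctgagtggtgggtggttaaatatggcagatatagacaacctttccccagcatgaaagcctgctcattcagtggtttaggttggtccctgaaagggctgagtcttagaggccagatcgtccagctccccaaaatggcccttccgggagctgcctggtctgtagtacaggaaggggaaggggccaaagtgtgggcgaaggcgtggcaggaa
The Fcgr1 window held TTCCCAGAA, a match to the gamma-activated site, at -109 to -101 from the start, and a PU.1 core at -55 to -50. The Fcgr4 window held GAAAAGGAAA, a match to the interferon-stimulated element, at -73 to -64, and a PU.1 core at -22 to -17. In Fcgr3 only a PU.1 core was found, and the windows of Fcgr2b and Fcer1g held none of the 3 motifs. The Fcgr2b and Fcgr3 windows lie inside these genes as annotated in GENCODE M21. Of the 250 bases of the Fcgr2b window, 187 are in annotated exons of Fcgr2b, against 16 in exons of Fcer1g for the Fcer1g window. Among all 32851 RefSeq promoter windows of this length, 7.02% held the gamma-activated site, 2.98% the interferon-stimulated core and 23.3% the PU.1 core. A match is a description of the letters, not a measured binding site.

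Libraries were estimated to hold 17070000 to 21750000 reads. Levels are in FPKM, which divides the fragments of a gene by its length and by the depth of the library. Comparisons between genes depend on the gene length used, which matters most for Fcgr2b. Correlations of log2 values were 0.977 to 0.986 within groups and 0.936 to 0.963 between them. Macrophage transcripts were abundant in these cells: all 20 macrophage markers that are not Fc receptors passed the filter, and their summed level was 17461 to 23211 FPKM with vehicle and 14267 to 18010 FPKM with R. Of 10 stromal markers 7 passed the filter, with a summed level of 382 to 732 FPKM with vehicle and 661 to 1069 FPKM with R, while Lepr, Thy1 and Nt5e did not. Both sums rest largely on a few genes. Lyz2, a macrophage marker, was 9920 to 12885 FPKM with vehicle and 8707 to 10798 FPKM with R. The stromal gene Col1a1 was 127 to 263 FPKM with vehicle and 327 to 588 FPKM with R. The part of these shifts in marker levels in the members' values was not tested, except where a member is set against the macrophage markers. In bulk RNA of this kind, fewer cells of a type and less RNA per cell cannot be told apart.

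All 3 activating receptors fell in R, by 6.41-fold for Fcgr1, 4.40-fold for Fcgr4 and 1.79-fold for Fcgr3 (ratios of mean FPKM, here and below). Neither the inhibitory receptor nor the signalling chain passed the test, at 1.87-fold lower for Fcgr2b and 1.28-fold lower for Fcer1g. Thus 3 of 5 members fell and 0 rose at an adjusted p under 0.05 (limma on log2(FPKM + 1), Benjamini-Hochberg over the 11862 genes), against a background of 4.43% of all genes lower, 2.39% higher and 6.82% changed in either direction. In each of the 5 the R libraries lay below all 3 vehicle libraries, which was so for 15.5% of all genes (13.9% had all R libraries above). The median log2 change was -0.84 over the members and -0.004 over all genes tested. Fcgr3 and Fcgr2b had log2 differences of like size, -0.82 and -0.84, on either side of the threshold (limma adjusted p 0.032 and 0.054).

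**Figure D1:**
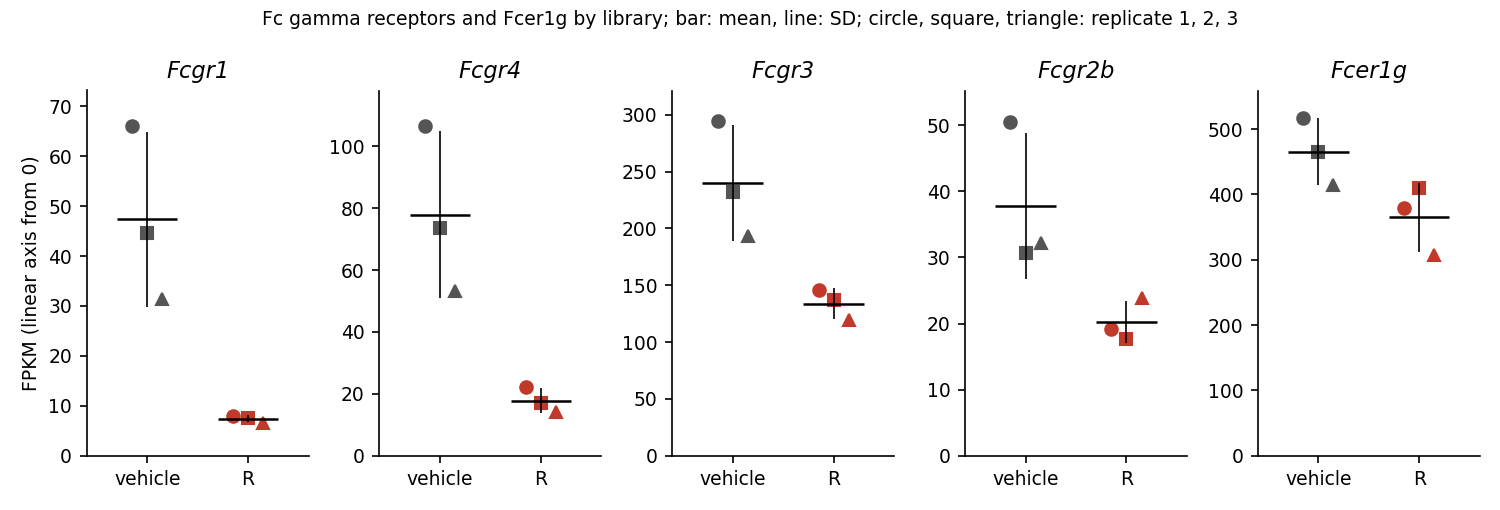
Level of each member in every library (FPKM, linear axes from 0, a separate scale for each gene), with points for libraries (circle, square and triangle for replicates 1, 2 and 3), horizontal bars for group means and vertical lines for the SD. Relative to its vehicle level, the drop is largest for Fcgr1 (6.41-fold) and Fcgr4 (4.40-fold), whereas the highest R library of Fcer1g, at 409.8 FPKM, lies just under the lowest vehicle library, at 414.6 FPKM.

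Fcgr1 (ENSMUSG00000015947, chr 3, 96282909 to 96293969, minus strand, GRCm38) encodes the high-affinity receptor, which can hold monomeric IgG. Its level was 66.1, 44.6 and 31.3 FPKM in vehicle replicates 1, 2 and 3, and 7.96, 7.62 and 6.56 FPKM with R. The R libraries lay close together and far below every vehicle library, while the vehicle libraries themselves spanned 2.11-fold. The mean went from 47.3 ± 17.5 to 7.38 ± 0.729 FPKM (SD, n = 3), a log2 change of -2.47 with an SE of 0.24 and an adjusted p of 0.0021 in limma. A log2 change of -2 or lower was found for 0.666% of all genes. In the order of all genes tested, Fcgr1 moved from place 1139 to place 6013. Each of the 6 fits that left out a library still called it, with adjusted p of 0.00072 to 0.017.

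Fcgr4 (ENSMUSG00000059089, chr 1, 171018920 to 171029761, plus strand) encodes an activating receptor of intermediate affinity that favours the IgG2 subclasses of the mouse. It measured 107, 73.5 and 53.2 FPKM in the vehicle libraries and 22.0, 17.0 and 14.1 FPKM in the R libraries. The groups were well separated, and the gap between the lowest vehicle and the highest R library was wider than the whole range of the R group. The mean went from 77.8 ± 27.0 to 17.7 ± 4.04 FPKM (SD, n = 3), a log2 change of -2.04 with an SE of 0.26 and an adjusted p of 0.0061 in limma. It too was called in each of the 6 fits without a library, with adjusted p of 0.0036 to 0.035.

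Fcgr3 (ENSMUSG00000059498, chr 1, 171051174 to 171064935, minus strand) encodes the low-affinity activating receptor and was the most abundant of the 4 receptors in every library. It measured 294, 232 and 193 FPKM with vehicle and 146, 137 and 119 FPKM with R. The groups did not overlap, but the fold change was smaller than for Fcgr1 and Fcgr4. The mean went from 239.8 ± 51.2 to 133.8 ± 13.6 FPKM (SD, n = 3), a log2 change of -0.82 with an SE of 0.17 and an adjusted p of 0.032 in limma. The call was held without vehicle replicate 3, at an adjusted p of 0.018. It was lost without R replicate 1, 2 or 3 (adjusted p 0.066, 0.085 and 0.082) and without vehicle replicate 1 or 2 (0.078 and 0.091).

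Fcgr2b (ENSMUSG00000026656, chr 1, 170958617 to 170976547, minus strand), the inhibitory receptor, measured 50.5, 30.6 and 32.2 FPKM with vehicle and 19.1, 17.7 and 23.9 FPKM with R. Vehicle replicate 1 stood above the other vehicle libraries, and the R libraries lay below all of them. The mean was 37.8 ± 11.0 FPKM with vehicle and 20.2 ± 3.23 FPKM with R (SD, n = 3), a log2 difference of -0.84 with an SE of 0.20 and an adjusted p of 0.054 in limma, which did not pass. Its estimated difference was thus as large as that of Fcgr3 but with a wider error. With a stricter filter of 5 FPKM the adjusted p was 0.043, and with array weights it was 0.022. With no filter it was 0.14, and 0 of the 6 fits without a library called Fcgr2b (adjusted p 0.062 to 0.14).

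The 50-base windows of the Fcgr3 transcripts were searched for in those of Fcgr2b, because the extracellular parts of these receptors are close in sequence. Of the distinct windows of Fcgr3, 9.58% also occurred in Fcgr2b, as did 2.54% of its 100-base windows, and no other pair of members shared any window. Reads from the shared stretches could have been counted for either gene, so the split between Fcgr3 and Fcgr2b is uncertain to that extent. Fcgr2b also shares 155 exon bases with the antisense gene Gm38204. Strandedness is not given in the sources used here, and reads from the 2 strands cannot be told apart there.

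Fcer1g (ENSMUSG00000058715, chr 1, 171229572 to 171234365, minus strand), the shared signalling chain, measured 517, 465 and 415 FPKM with vehicle and 379, 410 and 307 FPKM with R. The groups touched without overlapping. The mean was 466 ± 51.2 FPKM with vehicle and 365 ± 52.8 FPKM with R (SD, n = 3), a log2 difference of -0.36 with an SE of 0.14 and an adjusted p of 0.19 in limma. It was the most abundant member in every library and ranked 63 of all genes in vehicle and 85 in R.

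In the deposited FPKM of vehicle the order of levels was Fcer1g, Fcgr3 and Fcgr4 in all 3 libraries, followed by Fcgr1 and Fcgr2b, which changed places in vehicle replicate 3 and did not differ beyond their spread. In R the order began with Fcer1g and Fcgr3 and ended with Fcgr1 in all 3 libraries, while Fcgr4 and Fcgr2b changed places between R replicate 1 and the others. Vehicle replicate 1 was the highest library for all 5 members. Its macrophage marker mean was also the highest of the vehicle group, by 0.186 on the log2 scale over the group mean, against -0.217 for vehicle replicate 3. The part of this in the spread of the members was not tested.

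The summed level of the 4 receptors was 402.7 ± 105.7 FPKM with vehicle and 179.1 ± 15.7 FPKM with R (SD, n = 3). Within this sum the receptors shifted toward Fcgr3, whose share was 60.0% ± 2.82 in vehicle and 74.7% ± 1.78 in R. The share of Fcgr4 was 19.0% ± 1.72 and 9.8% ± 1.38, and that of Fcgr1 was 11.5% ± 1.33 and 4.12% ± 0.128. Fcgr2b held 9.40% ± 1.21 of the receptor transcripts in vehicle and 11.4% ± 2.74 in R, a difference within the spread of the R libraries. These shares were not tested on their own. Per median length of the protein-coding transcripts, an alternative added after the data were seen, Fcgr2b held 24.6% ± 2.64 with vehicle and 27.9% ± 5.29 with R. On that scale Fcgr3 held 54.3% ± 2.61 and 63.1% ± 4.20, Fcgr4 13.1% ± 1.38 and 6.34% ± 1.12, and Fcgr1 7.96% ± 1.03 and 2.66% ± 0.185.

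**Figure D2:**
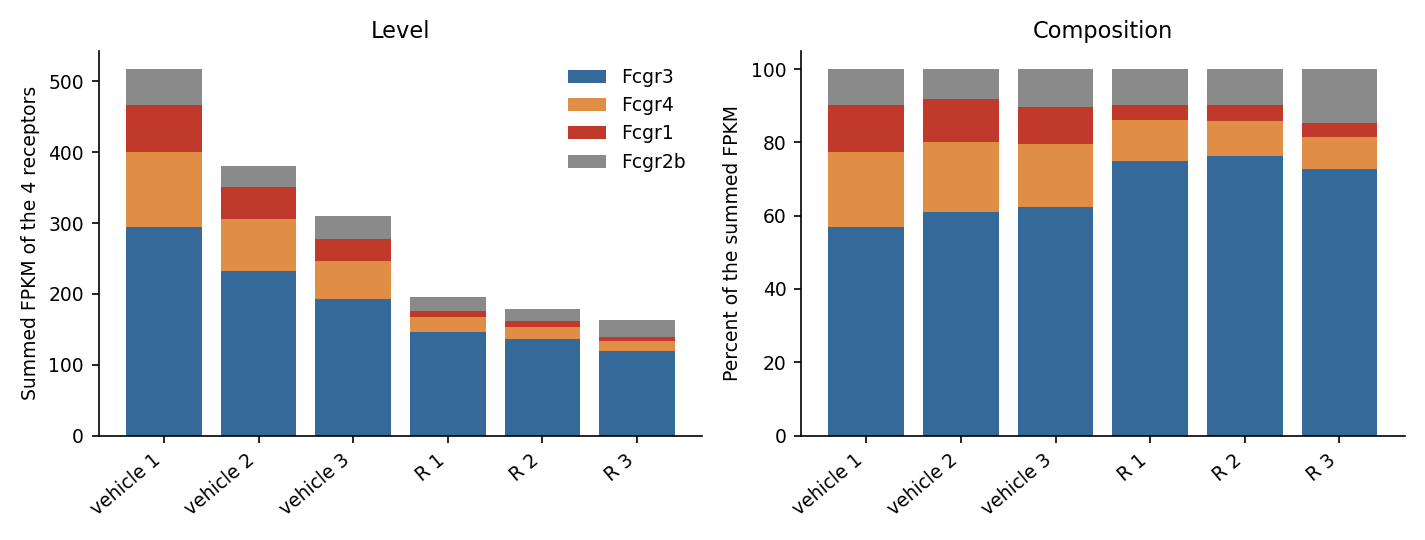
Stacked bars, 1 per library, of the 4 receptors: summed FPKM on the left and percent of that sum on the right. Fcgr3 takes 60.0% of the sum on average in vehicle and 74.7% in R, while the shares of Fcgr1 and Fcgr4 are smaller in every R library.

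The activating over inhibitory ratio, the sum of Fcgr1, Fcgr3 and Fcgr4 divided by Fcgr2b, was 9.25, 11.4 and 8.62 in vehicle and 9.20, 9.11 and 5.85 in R. The groups overlapped, and R replicate 3 was the lowest library. The mean was 9.77 ± 1.47 in vehicle and 8.05 ± 1.91 in R (SD, n = 3), a log2 difference of -0.30 with an SE of 0.25 (exact permutation test, two-sided, p = 0.4, adjusted p = 0.5 over 5 ratios). With 3 libraries against 3, this test cannot give a p below 0.1. The difference was -0.083 without R replicate 3, and -1.400 with Fcgr3 left out of the activating sum.

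Taken singly, the receptors differed in how they stood to Fcgr2b. Fcgr1 over Fcgr2b was 1.31, 1.46 and 0.974 in vehicle and 0.416, 0.431 and 0.275 in R, without overlap (log2 difference -1.75, SE 0.27, exact permutation p = 0.1, adjusted p = 0.167). Fcgr4 over Fcgr2b was 2.11, 2.40 and 1.66 in vehicle and 1.15, 0.961 and 0.589 in R, also without overlap (log2 difference -1.23, SE 0.33, exact permutation p = 0.1, adjusted p = 0.167). Fcgr3 over Fcgr2b was 5.83, 7.58 and 5.99 in vehicle and 7.63, 7.72 and 4.99 in R, and the groups overlapped (log2 difference 0.05, SE 0.24, exact permutation p = 0.8). Fcgr3 is the largest term of the activating sum, and its difference against Fcgr2b was smaller than its SE.

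Fcer1g over the summed activating receptors compares the chain with its partners. It was 1.11, 1.33 and 1.49 in vehicle and 2.15, 2.54 and 2.20 in R. All 3 R libraries lay above the vehicle libraries, with means of 1.31 ± 0.194 and 2.30 ± 0.213 (SD, n = 3; log2 difference 0.82, SE 0.15, exact permutation p = 0.1, the smallest possible, adjusted p = 0.167). So there was more transcript of the chain per transcript of its partner receptors in the R libraries.

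**Figure D3:**
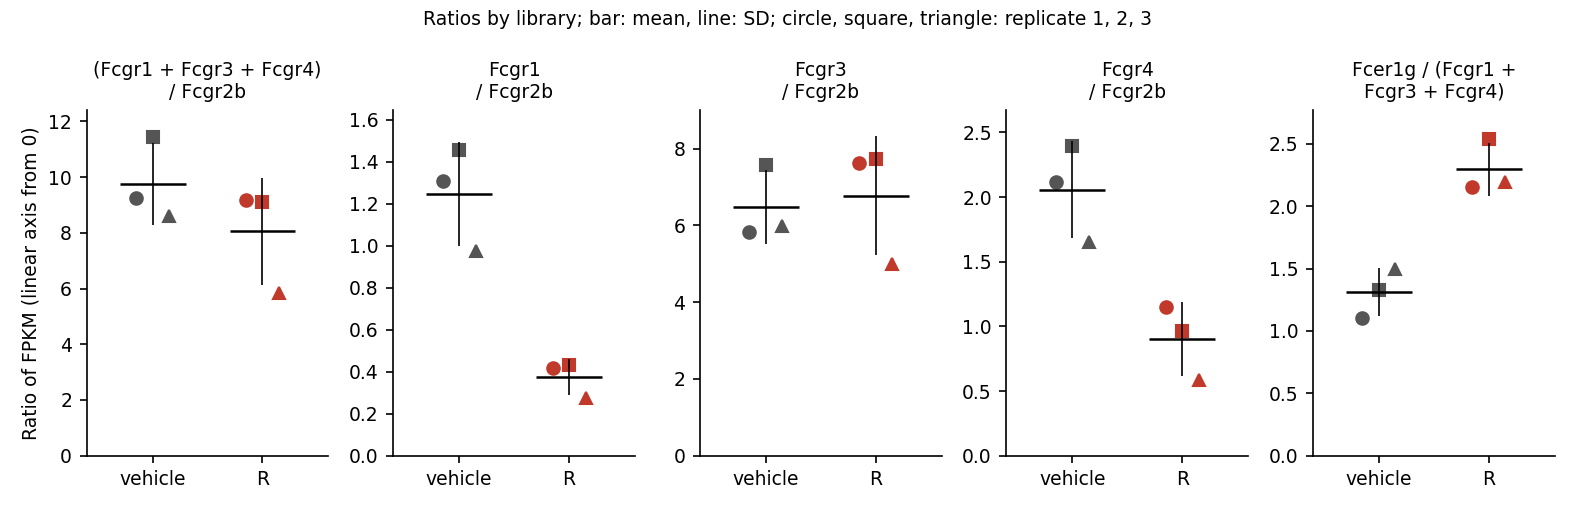
The 5 ratios in every library (ratio of FPKM, linear axes from 0, a separate scale for each ratio), with points for libraries, horizontal bars for group means and vertical lines for the SD. The activating over inhibitory ratio overlaps between groups (9.77 ± 1.47 and 8.05 ± 1.91), whereas Fcgr1 and Fcgr4 over Fcgr2b are lower and Fcer1g over the activating receptors is higher in all 3 R libraries.

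The level of Fcgr2b depends on the gene length behind its FPKM. Its annotated exons sum to 5790 bases, while its protein-coding transcripts have a median length of 1520 bases. Rescaled to that median length, Fcgr2b was at 143.9 ± 42.0 FPKM with vehicle and 77.1 ± 12.3 FPKM with R, above Fcgr4 and Fcgr1 in both groups. The activating over inhibitory ratio was then 3.09 ± 0.463 in vehicle and 2.67 ± 0.627 in R, a log2 difference of -0.233 (exact permutation p = 0.6, n = 3). The order of Fcgr2b among the receptors, its share and the size of the ratio therefore rest on the length used, while the fold change of each gene does not.

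Of the 20 macrophage markers, 4 fell and 0 rose, against 4.43% and 2.39% of all genes tested. A negative log2 change was found for 18 of the markers, and the median was -0.42. Of these 20 genes, Tyrobp and Spi1 also belong to other lists described here. Msr1, a scavenger receptor, and Itgam, an integrin chain that forms a complement receptor, were among those that fell, by 1.43 and 0.94 on the log2 scale (limma adjusted p 0.00084 and 0.0058). Cd68, a lysosomal glycoprotein of macrophages, was 666 ± 20.9 FPKM with vehicle and 723 ± 62.2 FPKM with R (SD, n = 3) and did not pass the test (adjusted p 0.58). The count of markers that fell was 2 without any of R replicates 1, 2 and 3 or vehicle replicates 1 and 2, and 5 without vehicle replicate 3.

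Each member was therefore also compared with the mean log2 level of these markers in the same library, which was 7.94 ± 0.203 in vehicle and 7.47 ± 0.149 in R (SD, n = 3). Relative to it, Fcgr1 was lower by a log2 difference of -2.001 (SE 0.20) and Fcgr4 by -1.57 (SE 0.20), in both cases without overlap between groups. Fcgr3 differed by -0.35 (SE 0.08), also without overlap. Fcgr2b differed by -0.38 (SE 0.24) and Fcer1g by 0.11 (SE 0.12), and for both the groups overlapped. The exact permutation p was 0.1, the smallest possible, for Fcgr1, Fcgr3 and Fcgr4, 0.2 for Fcgr2b and 0.5 for Fcer1g. These p-values were not adjusted over the 5 members. The sign for Fcer1g turned to -0.469 with Cd68 alone as the reference, -0.056 with Csf1r alone and -0.024 with the list median.

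Markers of other cells that carry Fc receptors were low. Fcgr3 is also the Fc receptor of NK cells, and the 10 NK and T cell markers summed to 4.79 to 9.48 FPKM with vehicle and 2.07 to 4.90 FPKM with R. Ncr1 and Klrb1c, which define NK cells, were listed at 0 in every library. Nkg7, a granule gene of NK and T cells, fell from 2.22 ± 0.770 to 0.142 ± 0.127 FPKM (SD, n = 3, limma adjusted p 0.0079). Of the 10 markers, 5 had all R libraries below the vehicle libraries, and 1, Cd4, had all above. Over all genes tested this was so for 15.5% and 13.9%. Gzmb was 1.775 ± 1.265 FPKM with vehicle and 0.0578 ± 0.0509 FPKM with R (SD, n = 3). Cd8a was 1.05 ± 0.476 and 0.164 ± 0.0401 FPKM, and neither passed the filter on low values. The part of such cells in the members' values was not tested. Fcgr2b is the only Fc gamma receptor of B cells, and 5 B cell markers summed to 2.55 to 4.33 FPKM with vehicle and 2.20 to 4.42 FPKM with R, nearly all of it Ebf1, a factor that stromal cells can express too. Neutrophil markers summed to 8.63 to 14.5 FPKM with vehicle and 6.46 to 9.63 FPKM with R, and S100a9, Mpo and Elane were listed at 0. Mast cell and basophil markers reached at most 5.30 FPKM in sum, with Fcer1a and Mcpt4 listed at 0. Most of that sum was Mcpt8, at 1.14 ± 1.40 FPKM with vehicle and 3.46 ± 2.25 FPKM with R (SD, n = 3; limma adjusted p 0.3). Dendritic cell markers reached at most 10.2 FPKM in sum, most of it Itgax.

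Lists of platelet, endothelial and stromal markers gave 0 calls in limma, with an unadjusted p under 0.05 for 1 endothelial and 2 stromal genes. Pf4, a platelet chemokine that macrophages can also express, set the platelet sum at 72.0 to 164 FPKM with vehicle and 53.3 to 108 FPKM with R. Endothelial markers summed to 1.32 to 1.92 FPKM with vehicle and 2.21 to 5.18 FPKM with R. Of the 7 kept stromal markers, 0 fell and 0 rose, with a median log2 change of 0.06. Col1a1, a collagen chain, was 214 FPKM with vehicle and 479 FPKM with R with an adjusted p of 0.079. With array weights, 2 stromal markers fell, Col1a1 rose (adjusted p 0.022) and the endothelial gene Cdh5 rose (0.01). Pdgfrb, a receptor of stromal cells, rose without R replicate 1 (adjusted p 0.039) and with a replicate block (0.024).

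Of 8 genes for immunoglobulin heavy and light chains, Ighm reached at most 1.25 FPKM and Igkc was listed at 0. The other 6, the IgG heavy chains among them, were not found by symbol among the genes listed, so their levels cannot be given. Of 5 other Fc or immunoglobulin receptors that passed the filter, 1 fell and 1 rose (all genes 4.43% and 2.39%). Their median log2 change was 0.30. Trim21, the cytosolic antibody receptor, fell from 8.92 ± 1.71 to 3.79 ± 0.281 FPKM (SD, n = 3; limma adjusted p 0.0066). Fcrls, a scavenger-type Fc receptor-like gene, rose from 20.9 ± 4.10 to 34.6 ± 3.98 FPKM (SD, n = 3; limma adjusted p 0.044), a call that was lost on leaving out any of the 6 libraries, with adjusted p of 0.05 to 0.12. Fcgrt, the neonatal Fc receptor that recycles IgG, was 43.2 ± 8.44 FPKM with vehicle and 54.4 ± 6.71 FPKM with R (SD, n = 3; adjusted p 0.26).

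Of 7 kept genes for other ITAM adaptors and receptors that signal through Fcer1g, 2 fell and 0 rose (all genes 4.43% and 2.39%). The median log2 change of the list was -0.28. Both genes that fell encode C-type lectin receptors of fungal and bacterial glycolipids or glycans that use Fcer1g. Clec4e (Mincle) fell from 9.45 ± 1.014 to 3.74 ± 0.227 FPKM (SD, n = 3; limma adjusted p 0.0013). Clec4n (Dectin-2) fell from 86.6 ± 32.2 to 37.4 ± 1.23 FPKM (SD, n = 3; limma adjusted p 0.032), and lost the call without R replicate 1, 2 or 3 (adjusted p 0.079, 0.089 and 0.082). Tyrobp, the ITAM adaptor closest in role to Fcer1g, was 671 ± 60.0 FPKM with vehicle and 631 ± 85.1 FPKM with R (SD, n = 3; adjusted p 0.74), and was named for its role after its values were seen. Its log2 difference of -0.09 turned to 0.022 without R replicate 3.

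Of 15 other leukocyte receptors listed as ITIM receptors, the class of Fcgr2b, 6 fell and 0 rose (all genes 4.43% and 2.39%). Their median log2 change was -0.56. Whether each mouse protein on this list, Cd33 among them, carries an ITIM was not checked. Pilra fell from 17.6 ± 4.52 to 5.55 ± 1.12 FPKM, Cd300lf from 12.2 ± 2.19 to 4.73 ± 1.28 FPKM and the sialic acid receptor Cd33 from 9.94 ± 1.99 to 4.53 ± 0.343 FPKM (SD, n = 3; limma adjusted p 0.0082, 0.011 and 0.0095). Each of these was called in all 6 fits without a library. Lair1, a collagen receptor, fell by 0.77 on the log2 scale (adjusted p 0.022). The count of the list was 4, 3 and 4 without R replicates 1, 2 and 3, and 3, 3 and 7 without vehicle replicates 1, 2 and 3.

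Downstream of the activating receptors, 5 of 26 genes fell and 0 rose (all genes 4.43% and 2.39%), with a median log2 change of -0.25. The adaptor Lcp2 (SLP-76) fell by 0.76, the lipid kinase subunit Pik3cd by 0.74 and the kinase Fgr by 0.73 on the log2 scale (limma adjusted p 0.017, 0.021 and 0.021). Syk, the kinase that docks on Fcer1g, was 31.0 ± 4.63 FPKM with vehicle and 27.2 ± 5.07 FPKM with R (SD, n = 3; adjusted p 0.53), and was named for its role after its values were seen. The count of this list was 2, 1 and 1 without R replicates 1, 2 and 3, and 2, 0 and 6 without vehicle replicates 1, 2 and 3.

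On the inhibitory side, 2 of 12 signalling genes fell and 0 rose (all genes 4.43% and 2.39%), with a median log2 change of -0.22. The 2 genes were Dok2, an adaptor that restrains Ras signalling, at 25.8 ± 3.16 and 15.4 ± 1.83 FPKM, and Ubash3b, a phosphatase that acts on Syk, at 8.36 ± 0.635 and 5.15 ± 0.525 FPKM (SD, n = 3, limma adjusted p 0.021 and 0.018). Ptpn6, the phosphatase SHP-1, was 110 ± 20.1 FPKM with vehicle and 71.2 ± 6.18 FPKM with R (SD, n = 3; adjusted p 0.053). Inpp5d, the phosphatase SHIP1 that Fcgr2b recruits, was 41.2 ± 5.24 FPKM with vehicle and 33.7 ± 5.15 FPKM with R (SD, n = 3; adjusted p 0.26), and was likewise named for its role after its values were seen. The count of this list was 0 without vehicle replicate 1 or 2, 1 without R replicate 1 or 3, and 4 without vehicle replicate 3.

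Among effectors, 2 of 12 genes of the actin machinery of phagocytosis fell and 0 rose, against 4.43% and 2.39% of all genes (median -0.16). Rac2, a GTPase of blood cells, fell from 94.8 ± 8.70 to 61.9 ± 2.58 FPKM, and Dock2, its exchange factor, fell by 0.57 on the log2 scale (SD, n = 3; limma adjusted p 0.013 and 0.042). This count was 1 without any of the libraries except vehicle replicate 3. Of 5 genes of the phagocyte oxidase, which makes superoxide, 2 fell and 0 rose (median -0.30). Cybb, its catalytic subunit, fell from 183 ± 38.4 to 79.9 ± 16.2 FPKM, and Ncf1, a cytosolic subunit, from 73.8 ± 10.3 to 44.1 ± 6.52 FPKM (SD, n = 3; limma adjusted p 0.019 and 0.027). The oxidase count was 0 without vehicle replicate 1 or 2 and 1 without R replicate 2 or 3.

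Among 15 regulators known to act on Fc gamma receptor transcription, 6 fell and 0 rose (all genes 4.43% and 2.39%). Their median log2 change was -0.43, with a range of -2.61 to 0.05. Genes of interferon signalling were among those that fell. Irf1 fell from 49.4 ± 11.6 to 7.12 ± 0.771 FPKM (SD, n = 3; limma adjusted p 0.00049). Irf9 fell from 11.9 ± 1.53 to 2.41 ± 0.0563 FPKM, and Socs1, a feedback inhibitor of cytokine receptors, from 5.81 ± 1.14 to 0.972 ± 0.121 FPKM (SD, n = 3; limma adjusted p 0.00024 and 0.00094). These 3 were called in each of the 6 fits without a library. Spi1, which encodes PU.1, was 160 ± 9.29 FPKM with vehicle and 133 ± 12.6 FPKM with R (SD, n = 3; adjusted p 0.17).

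**Figure D4:**
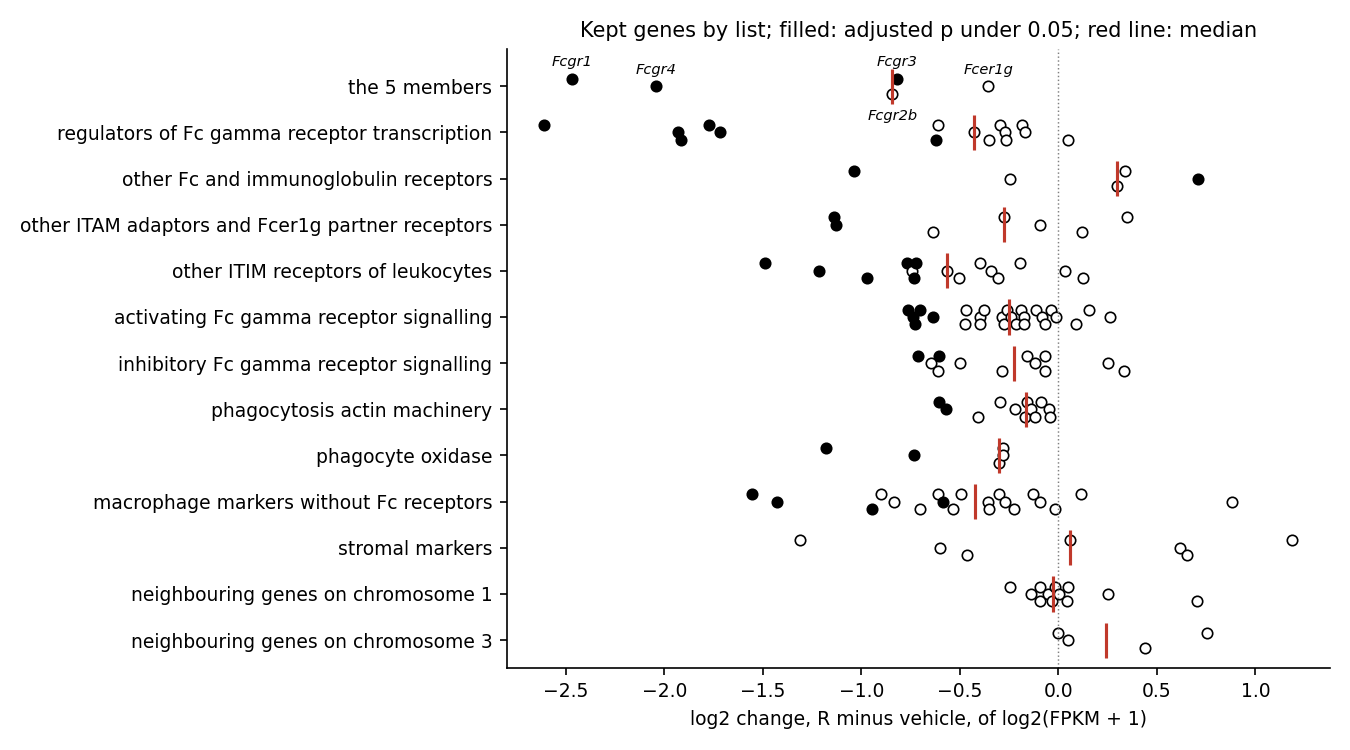
Log2 change (R minus vehicle, log2(FPKM + 1) scale) of each kept gene of the members, the pathway lists, macrophage and stromal markers and neighbouring genes, 1 point per gene, with a red line at each list median and filled points for genes past the threshold. The members' median is -0.84 and the other medians lie between -0.56 and 0.30, with Irf1 (-2.61) the lowest gene of the regulators.

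Members on chromosome 1 lie within 275749 bases, in the order Fcgr2b, Fcgr4, Fcgr3 and Fcer1g. Neighbours differed in size: Fcgr4 lies between Fcgr2b and Fcgr3, which had log2 differences of -0.84 and -0.82 against its -2.04. Of 31 other annotated genes in this interval and 100 kb on either side, 12 passed the filter, and 0 fell and 0 rose in limma (1 had an unadjusted p under 0.05). Their log2 changes ran from -0.25 to 0.70 with a median of -0.03. Around Fcgr1 on chromosome 3, 4 of 30 genes within 100 kb passed the filter, and 0 fell and 0 rose (2 had an unadjusted p under 0.05). With 6.82% of all genes tested called, 0 calls among 12 or 4 genes say little about these intervals.

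**Figure D5:**
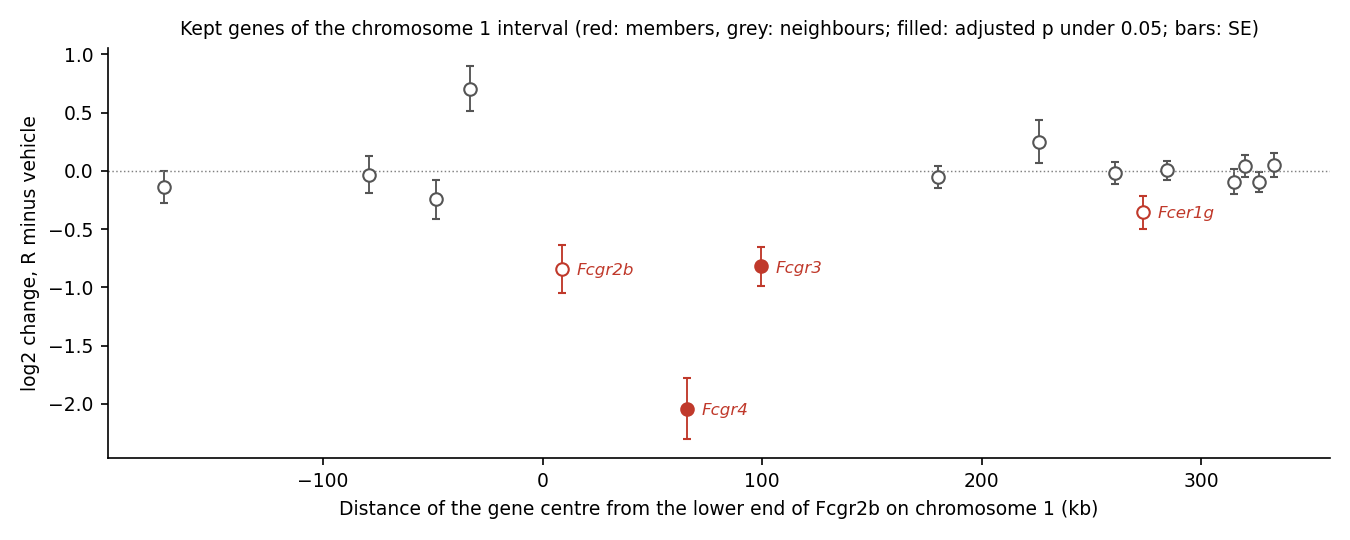
Log2 change (R minus vehicle) of the kept genes around the members on chromosome 1, by distance of the gene centre from the lower end of Fcgr2b in kb, with members in red, other genes in grey and bars for the SE. The 12 other genes lie between -0.25 and 0.70, and Fcgr4 at -2.04 stands between Fcgr2b and Fcgr3.

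Genes with the pattern most like each member were found by the root mean square difference of log2 values over the 6 libraries, after each gene's vehicle mean was subtracted. This is a description of the same libraries. For Fcgr1 they were F830016B08Rik (0.133), Calhm6 (0.157) and Irf1 (0.187), and for Fcgr4 they were H2-T23 (0.129), Slfn5 (0.151) and Ciita (0.193). F830016B08Rik and Ciita were near 0 with R, at most 0.0504 and 0.159 FPKM, so their log2 changes depend on the pseudocount. Over the alternatives run, these changes ranged from -5.198 to -0.945 and from -4.257 to -0.787. Likeness was computed on the log2(FPKM + 1) scale only. Irf1 and Ciita encode regulators of interferon and MHC class II genes, and H2-T23 a non-classical MHC class I molecule. For Fcgr3 the nearest were Ly9, Evl and Scarf1 (0.070 each), for Fcgr2b Tlr7 (0.119), D330045A20Rik (0.127) and Lrp12 (0.128), and for Fcer1g Rpl26 (0.053), Fastkd3 (0.054) and Pafah1b3 (0.059). Among the members themselves the closest pairs were Fcgr2b with Fcgr3 (0.233), Fcgr1 with Fcgr4 (0.323) and Fcgr3 with Fcer1g (0.347). Fcgr2b stood 0.454 from Fcer1g, and Fcgr1 stood 1.51 from it.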

How the data were processed

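Total RNA was sequenced from 6 libraries, grouped as R or vehicle by their titles. The authors deposited 1 table of FPKM for 49328 genes. Per the submitters' processing notes, the genome was mm10 (GRCm38) and the tools included edgeR 3.18.1. An aligner, counter, annotation or strand setting is not given in the sources used here. Symbols, coordinates and exon lengths came from GENCODE M21, which named 49281 of the identifiers, and 1 incomplete final line was left out.

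Values were tested as log2(FPKM + 1), which understates changes of low genes, with a variance trend in limma 3.58.1 (R version 4.3.3). Genes that reached 1 FPKM in 3 or more libraries were kept (11862), and p-values were adjusted by Benjamini-Hochberg over them, at a threshold of 0.05. The script was tested on simulated data. Depth was estimated from low values, of which 98.3% to 98.4% were whole reads within 0.02 reads under 20.5 reads. It covers counting error only and rests on the annotation used here. Ratios and levels relative to macrophage markers were compared by exact permutation tests over the 6 libraries, two-sided.

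The members and gene lists were chosen with earlier results of these data known. The rule for named genes took all 5 members and up to 4 kept genes per list with the smallest p. It also took the 3 protein-coding genes most like each member. Tyrobp, Cd68, Syk, Inpp5d and Spi1 were added for their roles after their values were seen. Genes listed at 0, Lyz2, Gzmb and Cd8a were also added after their values were seen. Some genes that the rule names are not reported here. Alternatives were other pseudocounts, filters, scalings, weights and references, a replicate block, leaving out each library, and, added after the data were seen, a median transcript length.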

Additional observations from a re-analysis of the deposited data

How the results depend on the processing

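All 5 members were lower in R under each alternative run, and Fcgr1 and Fcgr4 were called in each; 2 to 4 members were called. Fcgr3 was lost with no filter (adjusted p 0.10). Over all genes, 279 fell and 65 rose with no filter, and 1346 and 1114 with array weights; without 1 library, 272 to 527 fell and 63 to 352 rose. The median log2 change of all genes was -0.004 as deposited and 0.029 at most under other scalings.

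Whether equal replicate numbers pair the libraries is not settled here. Correlations of deviations from the group means were 0.142, -0.012 and -0.031 for same-numbered libraries, and -0.139 to 0.137 for the others. With 3 libraries a group, these values cannot decide it. With a replicate block 457 genes fell and 299 rose, and Fcgr3 and Fcgr2b had adjusted p of 0.016 and 0.061 in limma. The activating over inhibitory log2 ratio differed by -0.299 (exact sign-flip p = 0.25, the smallest this test can give with 3 pairs).

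That difference was -0.410 to -0.083 without 1 library, -0.171 without Fcgr1, -1.400 without Fcgr3 and -0.325 with 1 FPKM added. Of uncalled values, several changed sign. Without 1 library, Fcgr3 over Fcgr2b ran from -0.058 to 0.257, Fcer1g relative to macrophage markers from -0.001 to 0.172, Tyrobp from -0.166 to 0.022, Ebf1 from -0.107 to 0.285, S100a8 from -0.184 to 0.105, Itgax from -0.122 to 0.276, Bola1 from -0.074 to 0.120 and Hist2h2be from -0.073 to 0.092. Array weights gave -0.397 for Ebf1, 0.286 for S100a8 and -0.103 for Bola1. S100a8 was 0.023 with quantile normalization, where Hist2h2be was 0.008; Hist2h2be was 0.002 with a pseudocount of 0.1, 0.009 with a common sum and 0.031 with equal medians. Fcer1g relative to Cd68, Csf1r and the list median was -0.469, -0.056 and -0.024. The cause was not tested. With 3 libraries a group, the exact test cannot reach 0.05.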
